A study of Mus musculus with 15 samples.

Results

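Interferon-stimulated genes are transcribed in response to interferons, the secreted antiviral cytokines. They were followed here through the raw count table of 15 bulk RNA-seq libraries of intradermal adipocytes, the floating fraction of collagenase-digested mouse dorsal skin. The members were 39 named genes, looked up by symbol in that table. Of these, 37 were found among 35373 genes, and Mx1 and Mx2 were not analysed here. All 37 passed the filter on low counts, which left 16935 genes to test. Wnt mice carried EngrailedCre/+; Rosa26rtTA/Rosa26rtTA; TetOBcat/+, so that doxycycline induces β-catenin in cells of the lineage that has expressed Engrailed, and they were labelled as having 2 days of activation at postnatal day 23 (P23, n = 4) or 5 days at P26 (n = 5). Controls at P23 (n = 3) and P26 (n = 3) carried +/+; Rosa26rtTA/Rosa26rtTA; TetOBcat/+, without the Cre. Doxycycline in food at 6 g/kg and in water at 2 mg/mL is given for all animals, controls included. The lineage marked by Engrailed is that of dorsal dermal cells and is not restricted to adipocytes, and a floating fraction can carry other cells of the skin.

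Type I interferons bind the receptor made of IFNAR1 and IFNAR2 and act through JAK kinases on transcription factors, which join IRF9 in a complex that binds a DNA element, the interferon-stimulated response element. The products of the genes it switches on sense foreign nucleic acids, degrade or trap viral RNA, tag proteins with ISG15, and raise the level of the signalling factors themselves. Many cell types in skin and adipose tissue, adipocytes and macrophages among them, respond to interferon.

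The response element shows in the promoters of many members, and the stretches below are shown because they belong to genes whose values the results turn on. Promoter windows of 300 bases, from 250 before to 50 after an annotated start, were available for 29 of the 37 members (34 windows, RefSeq, GRCm38.p6). The core, read here as GAAA, any 2 bases and GAAA (TTTC, any 2 bases and TTTC on the other strand), was searched on both strands and occurred in 15 of the 34 member windows (44.1%), against 1131 of all 32851 windows (3.44%). Each stretch is printed 5′ to 3′ on the strand of its gene, with the core matches in capitals, and a match is a description of the letters only.
Isg15 (chr4:156200855-156200916, minus strand): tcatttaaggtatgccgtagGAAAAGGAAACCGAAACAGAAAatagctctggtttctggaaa
Ifit1 (chr19:34640765-34640833, plus strand): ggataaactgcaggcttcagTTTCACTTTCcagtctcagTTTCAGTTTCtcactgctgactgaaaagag
Oas1a (chr5:120907510-120907565, minus strand): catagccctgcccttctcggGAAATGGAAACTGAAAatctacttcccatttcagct
Rsad2 (chr12:26456543-26456592, minus strand): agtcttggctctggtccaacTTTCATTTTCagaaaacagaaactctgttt
Ifitm3 (chr7:141010696-141010762, minus strand): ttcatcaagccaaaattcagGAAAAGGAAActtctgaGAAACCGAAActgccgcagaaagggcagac
Gbp2 (chr3:142620584-142620633, plus strand): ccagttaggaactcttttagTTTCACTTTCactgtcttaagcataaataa

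Isg15 held 3 overlapping matches between positions -78 and -57 relative to its start, where position 0 is the first transcribed base, and Ifit1 held a pair between -104 and -76. In Ifitm3 both matches lay just after the start, between positions 2 and 28. The palindrome TTCNNNGAA, the core bound by STAT dimers, occurred in 9 of the 34 member windows (26.5%), against 2726 of all 32851 windows (8.3%). Ifi202b held no GAAA core in its window and 1 TTCNNNGAA, in capitals here, between positions -148 and -140.
Ifi202b (chr1:173982964-173983012, minus strand): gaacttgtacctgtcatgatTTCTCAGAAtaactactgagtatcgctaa

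Total counts ran from 11383421 to 38501753 per library, with 13027 to 16663 genes detected. A pair of libraries stood apart. In P26 control replicate 1 keratinocyte markers summed to 5558 CPM (counts per 1e+06 of the normalised library), while replicates 2 and 3 of that group held 755.9 and 830.6 CPM. This library also had the lowest adipocyte marker sum of all 15, 10580 CPM. Hair follicle markers summed to 4341 CPM in 2-day Wnt replicate 1 as labelled, against 0 to 47.6 CPM in replicates 2 to 4 of that group, and in the authors' sample sheet it stands as a control. Mitochondrial genes took 8.368% to 31.66% of counts in the 2-day libraries, highest in replicate 1, against 5.298% to 9.365% in the P23 controls, and the part of this in the 2-day values was not tested. Adipocyte markers were present in every library, at 10580 to 76030 summed CPM. At each age replicate 1 of the controls carried Y-linked transcripts and the other controls Xist, whereas 8 of the 9 Wnt libraries carried Y-linked transcripts, so that sex and genotype largely moved together. Counts of 1 or 2 made up 0.946% to 1.94% of the nonzero values of a library, and 7 of the 555 member values were 0.

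**Figure D1:**
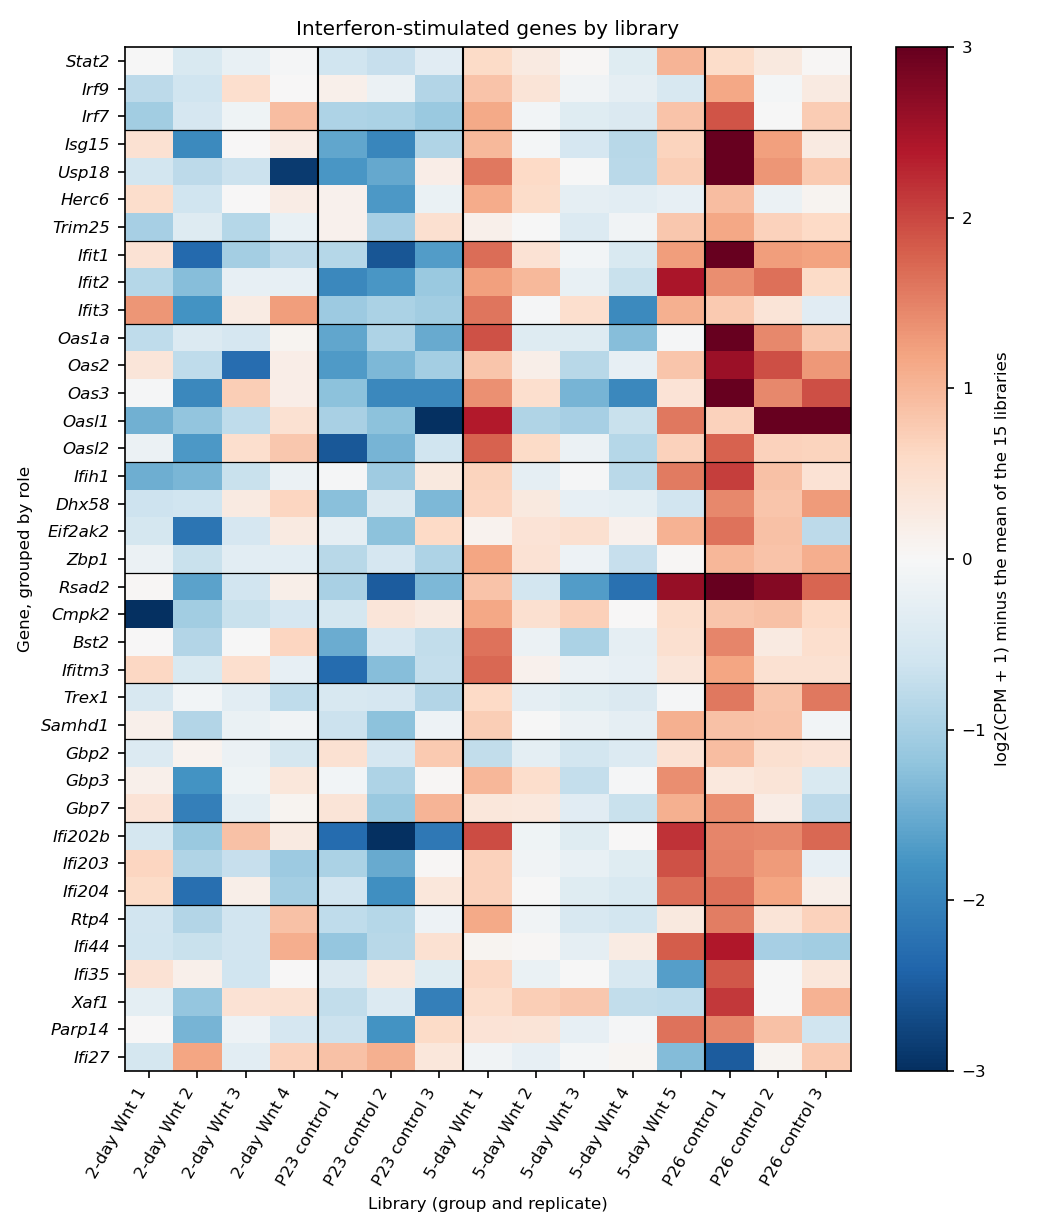
Levels of the 37 interferon-stimulated genes (rows, grouped by role) in the 15 libraries (columns), as log2(CPM + 1) minus the gene's mean over all libraries, with red higher and blue lower. The P26 controls and 5-day Wnt replicates 1 and 5 are red for most genes, and the P23 controls are blue for most.

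Over the 4 groups the members shared an order of means. The mean was highest in the P26 controls for 33 of the 37 members, against 27.71% of all genes tested, and lowest in the P23 controls for 27 of the 37, against 27.82% of all genes tested. The full order P23 controls, 2-day Wnt, 5-day Wnt, P26 controls held for 24 of the 37 members and for 6.407% of all genes tested. For these 24 members the means of both Wnt groups lay between those of the controls of either age. These shares describe the means and carry no test. Summed over the 37 members, the level was 1454, 1442, 1543 and 1802 CPM in the 2-day libraries, against 1334, 1229 and 1455 CPM in the P23 controls. It was 3131, 1573, 1327, 1292 and 2712 CPM in the 5-day libraries, against 4200, 2755 and 2756 CPM in the P26 controls. The 5-day group was split, with replicates 1 and 5 near the level of the P26 controls and replicates 2 to 4 within the range of the P23 libraries. Per kilobase of exon, Ifitm3 had the highest mean level over the 15 libraries, 354 ± 226 CPM per kb (SD, n = 15), followed by Ifi27 at 228 ± 118 and Ifi202b at 86.6 ± 76.5 CPM per kb. Ifi44 had the lowest, with a mean of 0.699 CPM per kb. The spreads of Ifitm3 and Ifi27, and those of Ifi27 and Ifi202b, overlapped within 1 SD. The order differed between groups, since in the P23 controls Ifi27 averaged 335.4 ± 82.0 CPM per kb, Ifitm3 118.5 ± 60.5, Gbp2 68.9 ± 28.4 and Ifi202b 8.79 ± 3.64 CPM per kb (SD, n = 3).

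The 2-day comparison asks how early Wnt activation altered the libraries. In the 2-day Wnt libraries 28 of the 37 members were higher and 9 lower than in the P23 controls, and the median log2 fold change was 0.475 against 0 for all genes tested. Members of the IFIT (3 of 3) and oligoadenylate synthetase (5 of 5) groups were all higher, with medians of 1.33 and 1.51, while 2 of the 3 guanylate-binding proteins were lower. No member passed the adjusted threshold of 0.05 in edgeR's quasi-likelihood test, nor did any other gene (0 of 16935, 0%). At an unadjusted p under 0.05, 4 members were higher and 0 lower, against 2.96% of all genes higher and 2.2% lower. All values of the 2-day group include the library labelled 2-day Wnt replicate 1. Without it 25 members were higher and 12 lower (median 0.352).

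Ifi202b, a p200-family protein known in mice as a candidate modifier of lupus, had the smallest p of the members at 2 days. The gene (ENSMUSG00000026535) lies on chromosome 1, 173962568 to 173982744, minus strand, in GRCm38. It stood at 61.8, 40.9, 164.2 and 107.8 CPM in the 2-day libraries, against 17.2, 7.93 and 19.6 CPM in the P23 controls. Every 2-day library as labelled lay above every P23 control. With replicate 1 counted as a control, as in the authors' sample sheet, the groups would overlap, since replicate 2 held 40.9 CPM and replicate 1 61.8 CPM. The DESeq2 test was not repeated with that grouping. The log2 fold change was 2.65 ± 0.67 (SE; 95% interval 1.34 to 3.96), with an edgeR adjusted p of 0.919. The DESeq2 test on the same groups gave 2.67 with an adjusted p of 0.00254, and Ifi202b was the only member it called at 2 days, where it called 104 genes higher (0.614%) and 45 lower (0.266%). Near-identical genes of the family lie beside Ifi202b on chromosome 1, and the rule for reads that map to several is not given in the sources used here. Its neighbours Ifi203 and Ifi204 differed by 0.35 ± 0.62 and 0.17 ± 0.67 on the log2 scale at 2 days.

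Groups that did not overlap at 2 days were seen for Ifi202b, Ifitm3 and Oas1a, all above the controls (3 of 37 members, against 2.24% of all genes tested), and no member lay wholly below them (0 of 37, against 2.91%). Ifitm3, a membrane protein that blocks the entry of viruses into cells, stood at 306.9, 143.2, 279.9 and 168.0 CPM in the 2-day libraries, against 39.2, 80.8 and 121.2 CPM in the P23 controls. Its log2 fold change was 1.48 ± 0.52 (edgeR unadjusted p = 0.0108, adjusted p = 0.919). The ranges came close, with the lowest 2-day library at 143.2 and the highest control at 121.2 CPM. With 2-day replicate 1 counted as a control, as in the authors' sample sheet, Ifi202b and Ifitm3 would overlap, and Oas1a would still not. Oas1a, which makes the oligoadenylates that activate RNase L, stood at 7.39, 9.68, 9.10 and 14.2 CPM in the 2-day libraries, against 3.84, 6.55 and 4.03 CPM in the P23 controls (log2 fold change 1.07 ± 0.73, edgeR adjusted p = 1).

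**Figure D2:**
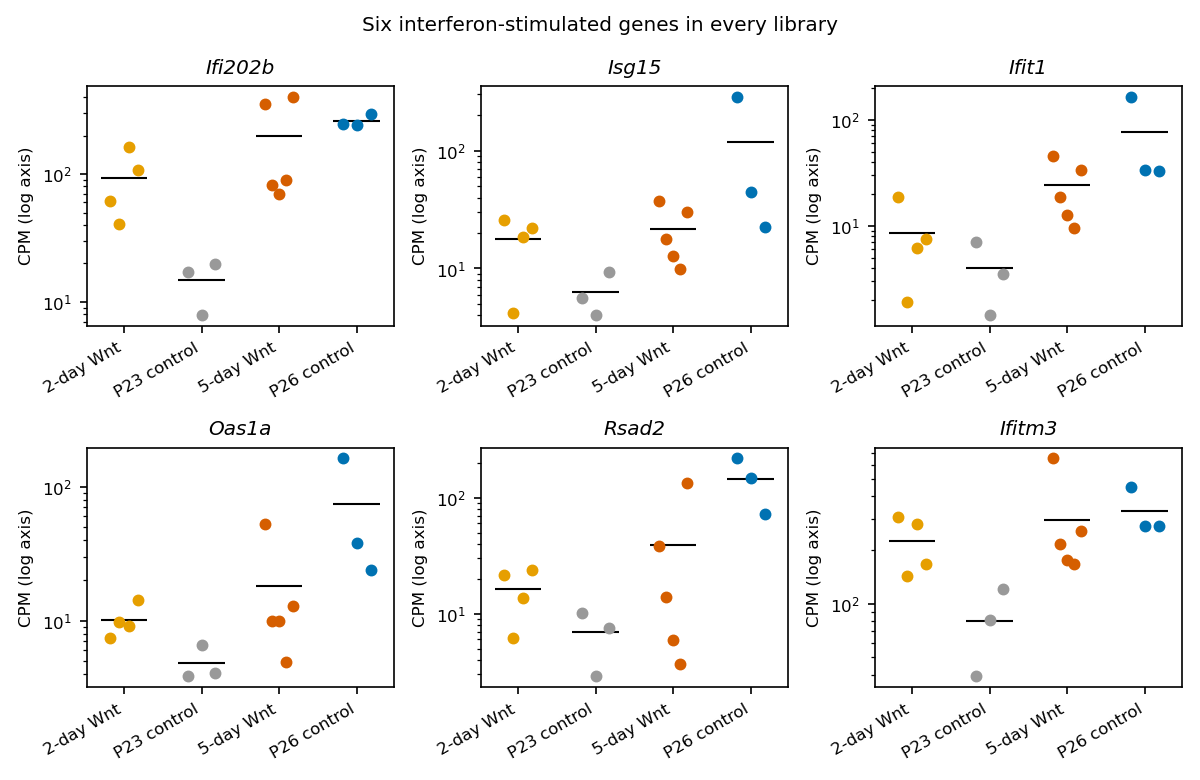
CPM on a log axis for 6 interferon-stimulated genes in every library, with a point per library and a line at the group mean. Ifi202b separates the 2-day libraries as labelled from the P23 controls, and for Isg15, Ifit1 and Oas1a P26 control replicate 1 lies far above the other libraries.

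Among the other members, Oasl2, an oligoadenylate synthetase-like protein, stood at 24.9, 7.91, 40.7 and 50.8 CPM in the 2-day libraries, against 4.05, 10.2 and 18.4 CPM in the P23 controls (log2 fold change 1.51 ± 0.67). Dhx58, the RNA sensor LGP2, stood at 8.10, 8.18, 15.7 and 20.7 CPM at 2 days, against 4.79, 9.27 and 4.45 CPM in the P23 controls (1.10 ± 0.51). Replicate 2 of the 2-day group lay inside the control range for Oasl2, and replicates 1 and 2 did for Dhx58. Ifit3, which binds viral RNA together with other IFIT proteins, stood at 16.8, 1.04, 7.46 and 15.9 CPM at 2 days, against 2.31, 2.68 and 2.42 CPM in the P23 controls (2.06 ± 0.99). Here 3 of the 4 Wnt libraries were above the controls and replicate 2 was below them. Ifit3 reads may be shared with its near copy Ifit3b. Isg15 (ENSMUSG00000035692, chromosome 4, 156199455 to 156200796, minus strand), the ubiquitin-like modifier, stood at 25.9, 4.21, 18.6 and 21.9 CPM at 2 days, against 5.61, 4.05 and 9.35 CPM in the P23 controls (1.48 ± 0.76). Replicate 2 was the lowest of the 2-day group for 22 of the 37 members, against 27.01% of all genes.

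The genes of the remaining roles had smaller differences or wide errors. Stat2, a transcription factor of the response complex, stood at 37.9, 27.8, 32.5 and 37.1 CPM in the 2-day libraries, against 24.8, 23.5 and 29.9 CPM in the P23 controls, a log2 difference of 0.38 ± 0.34 (95% interval -0.29 to 1.04). Irf7, the factor that amplifies interferon production, stood at 41.2, 60.1, 78.8 and 164.8 CPM at 2 days, against 45.1, 43.8 and 39.6 CPM in the P23 controls (1.01 ± 0.53). Ifit1 differed by 1.08 ± 0.78, Oas2 by 1.62 ± 1.18, Rtp4, a receptor chaperone, by 0.47 ± 0.51, Ifi35 by 0.18 ± 0.50 and Trex1 by 0.22 ± 0.34. Lower values were found for Ifih1, the RNA sensor MDA5 (-0.70 ± 0.57), and Gbp2, an interferon-induced GTPase (-0.58 ± 0.36). Their edgeR adjusted p-values lay between 0.919 and 1. With the library labelled 2-day Wnt replicate 1 moved to the controls, as in the authors' sample sheet, the median over the members was 0.169 in place of 0.475.

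The 5-day comparison asks the same after longer activation, against controls of the same age. In the 5-day Wnt libraries 34 of the 37 members were lower than in the P26 controls and 3 higher, and the median log2 fold change was -0.59 against 0.0305 for all genes tested. ISG15 and its enzymes (4 of 4), the oligoadenylate synthetases (5 of 5) and the RNA and nucleic acid sensors (4 of 4) were all lower, with medians of -1.35, -1.94 and -0.77. No member and no other gene passed the adjusted threshold in edgeR (0%). At an unadjusted p under 0.05, 8 members were lower and 0 higher, against 3.04% of all genes lower and 4.02% higher. Without P26 control replicate 1, 26 members were lower and 11 higher, the median was -0.23, and 3 members were lower at an unadjusted p under 0.05, against 3.32% of all genes in that fit. That library was the only P26 control without Xist, and all 5-day libraries carried Y-linked transcripts. In every 5-day value given without it, sex and Wnt activation therefore cannot be told apart. Mitochondrial genes took 9.199% to 16.57% of counts in the 5-day libraries, all above the 3.692% to 7.929% in the P26 controls, and the part of this in the 5-day values was not tested.

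**Figure D3:**
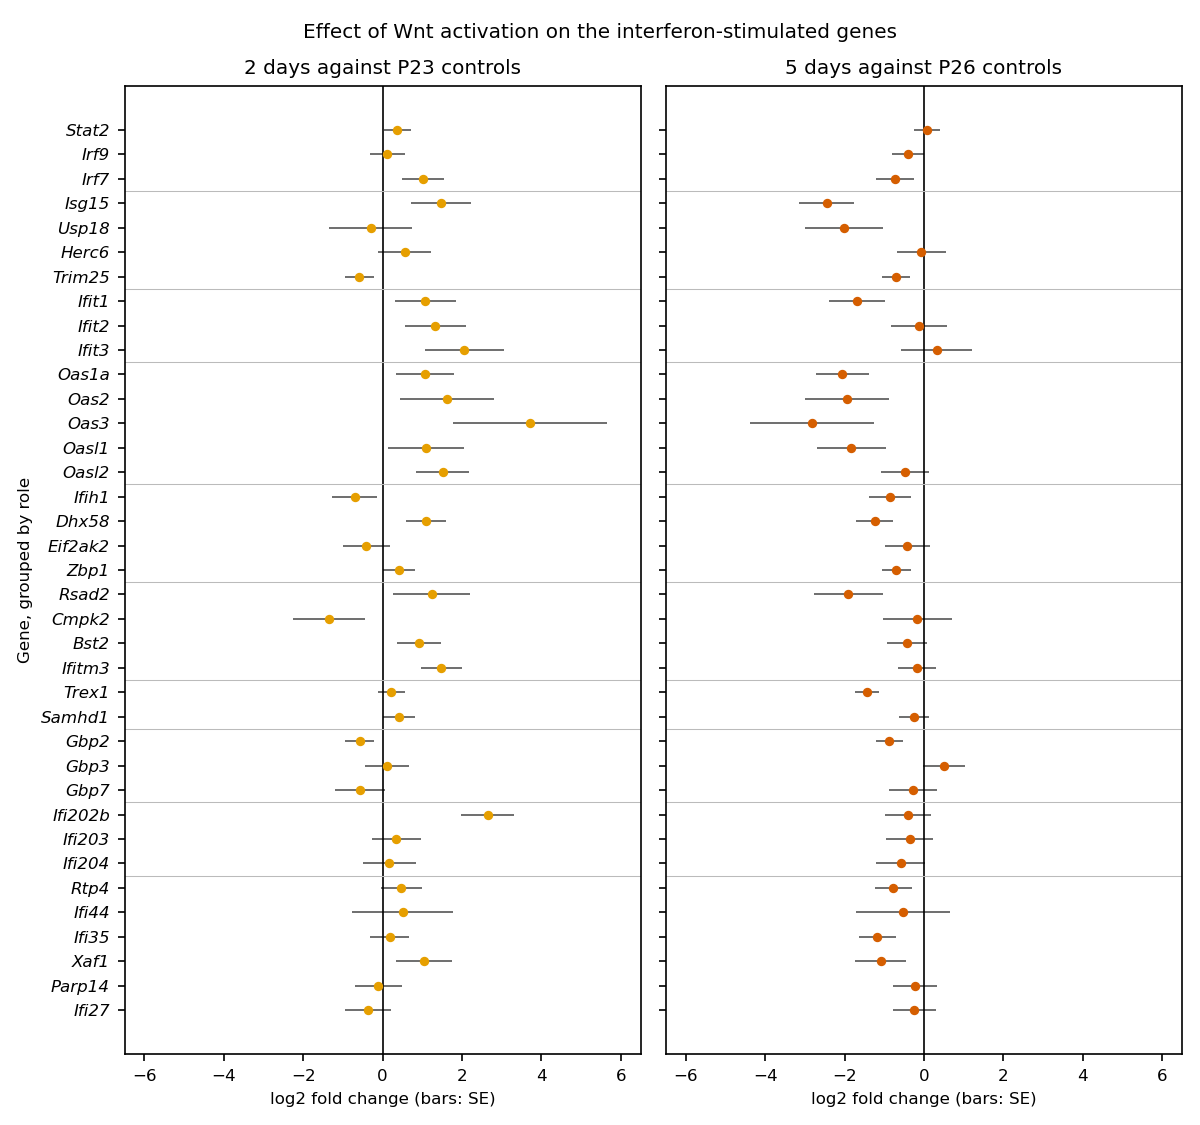
Log2 fold change with its SE for each of the 37 interferon-stimulated genes after 2 days of Wnt activation against P23 controls (left) and after 5 days against P26 controls (right). Most points lie right of 0 at 2 days (28 of 37) and left of 0 at 5 days (34 of 37).

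Trex1, an exonuclease that degrades DNA in the cytosol, had the smallest p of the members at 5 days. It stood at 65.2, 35.4, 32.8, 31.3 and 41.3 CPM in the 5-day libraries, against 129.0, 76.35 and 128.5 CPM in the P26 controls. Every 5-day library lay below every P26 control. The log2 fold change was -1.43 ± 0.31 (95% interval -2.05 to -0.82; edgeR unadjusted p = 0.000223, adjusted p = 0.293). DESeq2 gave -1.45 (adjusted p = 0.00386) and limma-voom with library weights -1.47 (adjusted p = 0.007). DESeq2 called 50 genes lower at 5 days (0.295%) and 150 higher (0.886%), and limma-voom 192 lower (1.13%) and 34 higher (0.201%). Trex1 (ENSMUSG00000049734, chromosome 9, 109057933 to 109059734, minus strand) lies wholly within Atrip, a DNA damage response gene on the same strand, and Atrip held 65.2, 38.99, 41.6, 39.9 and 43.7 CPM in the 5-day libraries, against 136.3, 78.7 and 135.6 CPM in the P26 controls (log2 fold change -1.35 ± 0.29). Counts of the nested gene and its host cannot be told apart.

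Isg15 stood at 37.4, 17.7, 12.8, 9.89 and 30.03 CPM in the 5-day libraries, against 286.2, 44.7 and 22.6 CPM in the P26 controls, a log2 fold change of -2.45 ± 0.69 (edgeR unadjusted p = 0.00231, adjusted p = 0.593). The groups overlapped, with 5-day replicates 1 and 5 above P26 control replicate 3. Without P26 control replicate 1 the Isg15 value was -0.65. Oas1a stood at 52.7, 9.86, 9.999, 4.91 and 12.9 CPM at 5 days, against 162.6, 37.9 and 23.9 CPM in the P26 controls (-2.05 ± 0.66, and -0.78 without P26 control replicate 1). Ifit1 stood at 45.5, 18.8, 12.7, 9.61 and 33.8 CPM at 5 days, against 165.2, 33.6 and 32.7 CPM in the P26 controls (-1.68 ± 0.70, and -0.47 without that library). For all 3 genes P26 control replicate 1 had the highest value of the 15 libraries.

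Dhx58 stood at 20.6, 16.03, 10.8, 10.3 and 8.31 CPM in the 5-day libraries, against 36.6, 23.7 and 32.9 CPM in the P26 controls (-1.24 ± 0.46, and -1.09 without P26 control replicate 1). Oas2 stood at 7.62, 4.55, 1.74, 3.12 and 7.61 CPM at 5 days, against 28.1, 17.6 and 10.99 CPM in the P26 controls (-1.94 ± 1.05). In both genes every 5-day library lay below every P26 control, which was so for 4 of the 37 members (Trex1, Dhx58, Oas2 and Oas3), against 2.25% of all genes tested, while 0 of 37 lay wholly above, against 3.39%. Without both libraries that stood apart 6 members lay wholly below, against 8.586% of all genes, and 1 wholly above, against 7.133%. Gbp2 stood at 81.6, 112.0, 93.4, 102.3 and 185.8 CPM at 5 days, against 258.4, 191.9 and 180.7 CPM in the P26 controls (-0.87 ± 0.34). Only 5-day replicate 5 reached the control range for Gbp2. Ifi35, which partners with other interferon-induced proteins, differed by -1.17 ± 0.46, and by -0.35 without P26 control replicate 1, in which it reached 156.2 CPM while replicates 2 and 3 held 42.2 and 53.8 CPM.

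For the members that follow, the 95% interval of the 5-day fold change included 0. Ifitm3 stood at 653.6, 214.9, 174.9, 166.9 and 255.4 CPM in the 5-day libraries, against 450.4, 272.1 and 271.4 CPM in the P26 controls (-0.18 ± 0.48, 95% interval -1.11 to 0.75). Ifi202b stood at 352.4, 81.7, 69.6, 90.6 and 402.5 CPM at 5 days, against 247.7, 243.0 and 298.1 CPM in the P26 controls (-0.40 ± 0.57). Stat2 differed by 0.08 ± 0.32 and Ifit3 by 0.32 ± 0.89. In Ifi202b the 5-day libraries formed separate levels, with replicates 1 and 5 above every P26 control and replicates 2 to 4 below every P26 control. Irf7 differed by -0.73 ± 0.48, Oasl2 by -0.48 ± 0.61, Ifih1 by -0.85 ± 0.54 and Rtp4 by -0.77 ± 0.48. Without P26 control replicate 1 these 4 values were -0.05, -0.02, -0.22 and -0.34. The unadjusted edgeR p of these 8 genes ran from 0.124 to 0.812, and the 95% interval of each included 0.

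The split of the 5-day group ran through the list. It was defined after the member values were seen, so that an excess over all genes is in part built in. The counts below describe the split and carry no test. Replicates 1 and 5 both lay above replicates 2 to 4 for 25 of the 37 members, against 13.83% of all genes tested. Replicates 2 to 4 all lay below every P26 control for 22 of the 37, against 5.994% of all genes. Rsad2, the antiviral enzyme viperin, stood at 38.5 and 132.4 CPM in replicates 1 and 5 and at 13.9, 5.92 and 3.68 CPM in replicates 2 to 4 of the 5-day group. The P26 controls held 217.5, 146.2 and 71.9 CPM of Rsad2. With library weights that give less to the libraries far from their groups, limma-voom called 4 members lower at 5 days, Oas1a, Oasl1, Rsad2 and Trex1, with log2 fold changes of -2.04, -3.85, -3.80 and -1.47. The weight of P26 control replicate 1 was 0.174, and those of 5-day replicates 1 and 5 were 0.456 and 0.489, against 1.65 to 3.27 in replicates 2 to 4.

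The difference between the 5-day and 2-day effects was tested in the same model. It was negative for 33 of the 37 members, with a median of -1.35 against 0.0558 for all genes tested. At an unadjusted p under 0.05, 14 members had a lower effect at 5 days and 0 a higher one, against 2.93% and 2.79% of all genes. None passed the adjusted threshold in edgeR (0%), where the smallest adjusted p of any gene was 0.81. The smallest p-values were those of Isg15 (-3.93 ± 1.04, unadjusted p = 0.00152), Trex1 (-1.66 ± 0.46) and Ifi202b (-3.05 ± 0.85), and DESeq2 called Isg15 and Ifi202b (adjusted p of 0.0234 and 0.0465), where it called 84 genes lower (0.496%) and 65 higher (0.384%). Atrip, the host gene of Trex1, stood at -1.55 ± 0.43. All 5 oligoadenylate synthetases were among the 14. Without P26 control replicate 1 the median was -0.80 and 5 members were lower at an unadjusted p under 0.05, against 2.38% of all genes in that fit. The mean of both effects had a median of -0.15 over the members, and 0.08 without P26 control replicate 1. In that mean 1 member was higher and 3 were lower at an unadjusted p under 0.05, against 5.07% and 2.78% of all genes. Gbp2 (-0.73 ± 0.25) and Trex1 (-0.61 ± 0.23) were lower and Ifi202b (1.12 ± 0.43) was higher, and no member passed the adjusted threshold in edgeR (0% of all genes), in DESeq2 (1.42% of all genes higher, 0.478% lower) or in limma-voom (0.0354% higher, 0.0295% lower). Atrip had a mean effect of -0.58 ± 0.21.

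The controls of both ages were compared because each time of activation has its own controls. In the P26 controls 36 of the 37 members were higher than in the P23 controls, and the median log2 fold change was 1.75 against -0.0133 for all genes tested. At an unadjusted p under 0.05, 25 members were higher and 0 lower, against 4.85% and 2.13% of all genes. None passed the adjusted threshold in edgeR (0%), and the smallest adjusted p of any gene was 0.149, shared by Ifi202b and Trex1. DESeq2 called 15 members higher (Irf7, Isg15, Ifit1, Ifit2, Oas1a, Oas2, Oas3, Oasl1, Oasl2, Dhx58, Zbp1, Rsad2, Ifitm3, Trex1 and Ifi202b) among 217 genes called higher (1.28%), with 69 genes lower (0.407%). Limma-voom with library weights called 8 of these 15 (Oas1a, Oasl1, Dhx58, Zbp1, Rsad2, Ifitm3, Trex1 and Ifi202b) among 131 genes higher (0.774%), with 7 genes lower (0.0413%). A separate edgeR fit on the control libraries alone (14975 genes) had the replicate number as a block. It called Ifit1, Rsad2 and Ifi202b among 16 genes higher (0.107%), each with an adjusted p of 0.0373. That block matches different animals of different ages by number, a pairing that the titles do not give, so that its calls add no support. Every P26 control lay above every P23 control for 25 of the 37 members, against 6.51% of all genes tested, and below for 0, against 5.67%.

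Ifi202b stood at 247.7, 243.0 and 298.1 CPM in the P26 controls, against 17.2, 7.93 and 19.6 CPM in the P23 controls (log2 fold change 4.14 ± 0.73). Isg15 stood at 286.2, 44.7 and 22.6 CPM in the P26 controls, against 5.61, 4.05 and 9.35 CPM in the P23 controls (4.21 ± 0.89, and 2.38 without P26 control replicate 1). Trex1 stood at 129.0, 76.35 and 128.5 CPM in the P26 controls, against 30.3, 29.8 and 22.6 CPM in the P23 controls (2.01 ± 0.37). Its host gene Atrip, from which its counts cannot be told apart, differed by 1.59 ± 0.34. The groups did not overlap for any of these genes. Ifit1 differed by 4.25 ± 0.92, Oas1a by 3.96 ± 0.85, Oas2 by 4.31 ± 1.37, Rsad2 by 4.40 ± 1.15 and Irf7 by 2.11 ± 0.57. Without P26 control replicate 1 the value was 3.02 for Ifit1, 2.67 for Oas1a, 3.89 for Oas2, 3.96 for Rsad2 and 1.42 for Irf7. The guanylate-binding proteins differed least, with Gbp2 at 0.28 ± 0.39 and a median of 0.28 over the 3. Ifi27, a small membrane protein, was the 1 member with a negative fold change, at 49.1, 301.5 and 487.8 CPM in the P26 controls, against 524.9, 592.5 and 358.8 CPM in the P23 controls (-0.82 ± 0.62).

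P26 control replicate 1 was the highest of its group for 30 of the 37 members, against 35.69% of all genes. Without it 34 of the 37 members were still higher in the P26 controls (median 1.36) and 18 were higher at an unadjusted p under 0.05, against 3.75% of all genes in that fit. The column headers give all libraries the same lane and number the P23 libraries before the P26 libraries, so that age and the order of sample numbers cannot be told apart. Within each age they number the controls before the Wnt libraries as labelled, so that Wnt activation and that order cannot be told apart either.

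**Figure D4:**
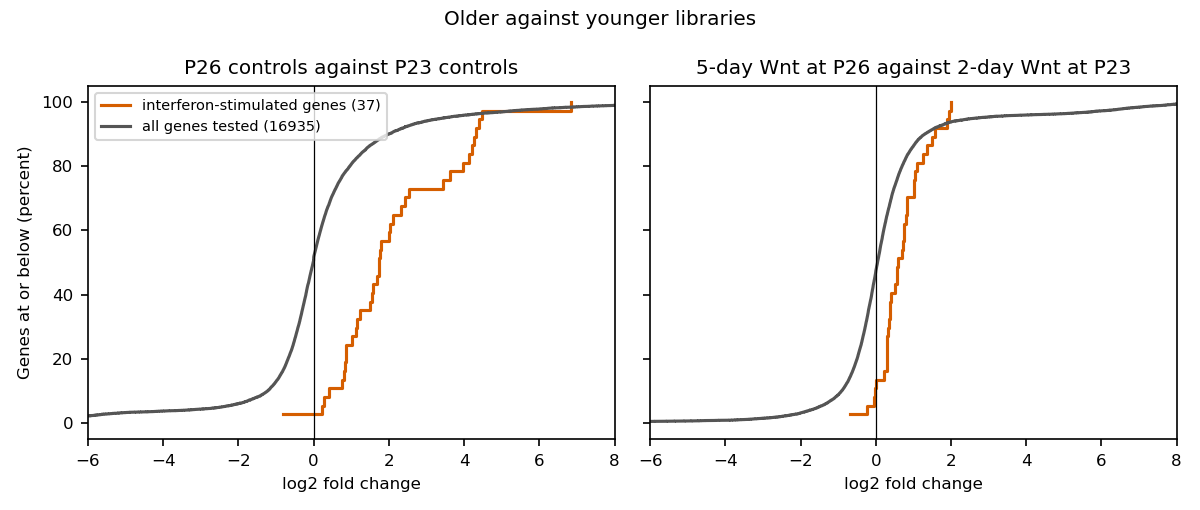
Percentage of genes at or below each log2 fold change for the 37 interferon-stimulated genes and for all genes tested, in P26 against P23 controls (left) and in 5-day Wnt at P26 against 2-day Wnt at P23 (right). The curve of the interferon-stimulated genes crosses 50% to the right of that of all genes in both panels, with medians of 1.75 and 0.58 against -0.0133 and 0.0451.

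A further contrast, chosen after the data were seen, set the 5-day Wnt libraries against the 2-day Wnt libraries. Of the 37 members 33 were higher at 5 days and 4 lower, and the median log2 fold change was 0.58 against 0.0451 for all genes tested. At an unadjusted p under 0.05, 5 members were higher and 0 lower, against 3.87% and 1.77% of all genes. No gene passed the adjusted threshold in edgeR (0%), and DESeq2 called 83 genes higher (0.49%) and 23 lower (0.136%) with 0 members among them. The 5 members at an unadjusted p under 0.05 were Trim25, Ifit1, Ifit2, Ifih1 and Cmpk2. Ifit2, an RNA-binding IFIT protein, stood at 17.2, 14.0, 5.54, 3.83 and 41.0 CPM in the 5-day libraries, against 3.25, 2.17, 5.52 and 5.49 CPM in the 2-day libraries (1.99 ± 0.69). Cmpk2, a mitochondrial nucleotide kinase, was the 1 member whose 5-day libraries all lay above the 2-day libraries (1 of 37, against 1.23% of all genes tested), and 0 lay wholly below (0.726%). Without 5-day replicate 5, 1 member of 37 was higher at an unadjusted p under 0.05, against 2.82% of all genes in that fit, so that this count is at the background. Without 5-day replicate 1 it was 2 members, against 4.13%, and without 2-day replicate 2 also 2, against 2.8%. The difference between this contrast and that of the controls is the difference between the Wnt effects tested above.

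Upstream of the members, only Ifnb1, which encodes interferon β, was detected widely enough to test among 21 interferon genes, and 18 of the 21 had 0 counts in all 15 libraries. Ifnb1 was at 0, 0, 0 and 1.91 CPM in the 2-day libraries, against 2.48, 0 and 0 CPM in the P23 controls. It was at 0, 0.405, 0.704, 1.15 and 8.39 CPM in the 5-day libraries, against 7.89, 14.1 and 15.6 CPM in the P26 controls. The highest 5-day library, replicate 5, lay within the range of the P26 controls, and the other 5-day libraries lay below it. The log2 fold changes were -0.79 ± 2.10 at 2 days, -2.55 ± 1.98 at 5 days and 3.91 ± 2.52 for the P26 against the P23 controls, with edgeR adjusted p of 1, 0.885 and 0.759. Counts behind these values ran from 9 to 428 where they were not 0. Ifnl3, a type III interferon, was present in P26 control replicate 1 alone, at 75 counts (3.399 CPM).

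The 6 interferon receptor genes had median log2 fold changes of -0.15 at 2 days and -0.10 at 5 days, and of 0.07 in the P26 against the P23 controls. Among them Ifnlr1, a subunit of the type III interferon receptor, was at 0 in 9 of the 15 libraries, and its highest level was 8.16 CPM. Of 15 JAK-STAT and IRF genes outside the members, 6 were higher and 9 lower at each time of activation, with 0 at an unadjusted p under 0.05 in either. In the P26 against the P23 controls 8 were higher and 7 lower (median 0.25). At an unadjusted p under 0.05, 2 of the 15 were higher, against 4.85% of all genes tested. These were Socs1, an inhibitor of JAK kinases (1.60 ± 0.55), and Ptpn6, a phosphatase (1.61 ± 0.58). Of 13 sensors and adaptors upstream of interferon, 12 were higher in the P26 than in the P23 controls (median 0.66). Among them were Tlr7, an endosomal RNA receptor (4.01 ± 1.73), and Adar, an RNA-editing enzyme (1.43 ± 0.45). Tlr7 was low, with a median of 2.09 CPM over the 15 libraries. At 2 days 8 of the 13 were higher and 5 lower (median 0.16), with Adar at 0.91 ± 0.42. At 5 days 3 were higher and 10 lower (median -0.25), with Myd88 at -0.58 ± 0.27.

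Interferon-induced genes that are not members were set beside them. Of 38 tested, 29 were higher and 9 lower at 2 days (median 0.42), 12 higher and 26 lower at 5 days (median -0.37), and 35 higher and 3 lower in the P26 against the P23 controls (median 1.37). At an unadjusted p under 0.05 these were 2 higher at 2 days, 5 lower at 5 days and 15 higher in the P26 controls. The shares of all genes tested were 2.96%, 3.04% and 4.85%. Parp10, Daxx and Parp12 had the smallest p at 5 days, with -1.31 ± 0.41, -1.18 ± 0.38 and -1.07 ± 0.37. Slfn2, a regulator of quiescence in immune cells, had the smallest p in the P26 controls (2.92 ± 0.67). Of 13 interferon γ-induced GTPases outside the members, 12 were lower at 5 days (median -0.69) and 9 were lower at 2 days (median -0.20). In the P26 against the P23 controls 10 were higher and 3 lower (median 0.79). They summed to 359.6, 292.7, 187.0, 173.2 and 510.0 CPM in the 5-day libraries. The P26 controls held 880.1, 302.2 and 232.8 CPM, so that these groups overlapped and P26 control replicate 1 was the highest. Of 15 genes of MHC class I and its peptide supply, 12 were lower at 2 days (median -0.16) and 13 at 5 days (median -0.43), where Tap1, a subunit of the peptide transporter, was -0.65 ± 0.28, and 7 were higher in the P26 against the P23 controls. None of these passed the adjusted threshold in edgeR.

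Cxcl10, a chemokine that attracts T cells and is induced by interferon, stood at 69.3, 55.7, 46.3, 51.7 and 106.0 CPM in the 5-day libraries, against 169.7, 150.4 and 220.5 CPM in the P26 controls. All 5-day libraries lay below all P26 controls, with a log2 fold change of -1.45 ± 0.33 (edgeR unadjusted p = 0.000312, adjusted p = 0.293). At 2 days it was -0.35 ± 0.35, and in the P26 against the P23 controls 0.56 ± 0.37. Cxcl9, the other interferon-induced chemokine tested, differed by -0.78 ± 0.76 at 2 days and -1.22 ± 0.72 at 5 days. In the P26 against the P23 controls Cxcl9 had the opposite sign to Cxcl10, at -0.55 ± 0.82.

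Markers of other cell types moved with some of these values, and in bulk libraries fewer cells of a type and less RNA per cell cannot be told apart. All 10 macrophage and monocyte markers were higher at 2 days (median 1.10), 9 of 10 were lower at 5 days (median -0.43), and all 10 were higher in the P26 against the P23 controls (median 2.05). Their summed level was 1333, 452.3, 1216 and 801.1 CPM in the 2-day libraries, against 472.0, 431.2 and 443.2 CPM in the P23 controls. It was 2448, 972.3, 610.6, 772.9 and 2061 CPM in the 5-day libraries, against 460.6, 3088 and 1945 CPM in the P26 controls. In the 5-day group replicates 1 and 5 were highest for both macrophage markers and interferon-stimulated genes, and replicate 2 of the 2-day group was lowest for both. P26 control replicate 1 went the other way, with the highest member sum of all libraries, 4200 CPM. Its macrophage sum of 460.6 CPM lay within the range of the P23 controls. In this library Adgre1, the marker F4/80, was at 0, while every other macrophage and monocyte marker was above 0 in all libraries. Ptprc, the leukocyte marker CD45, was also at 0 there, in a general leukocyte list that summed to 64.9 CPM. The part of macrophages in these results was not tested.

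**Figure D5:**
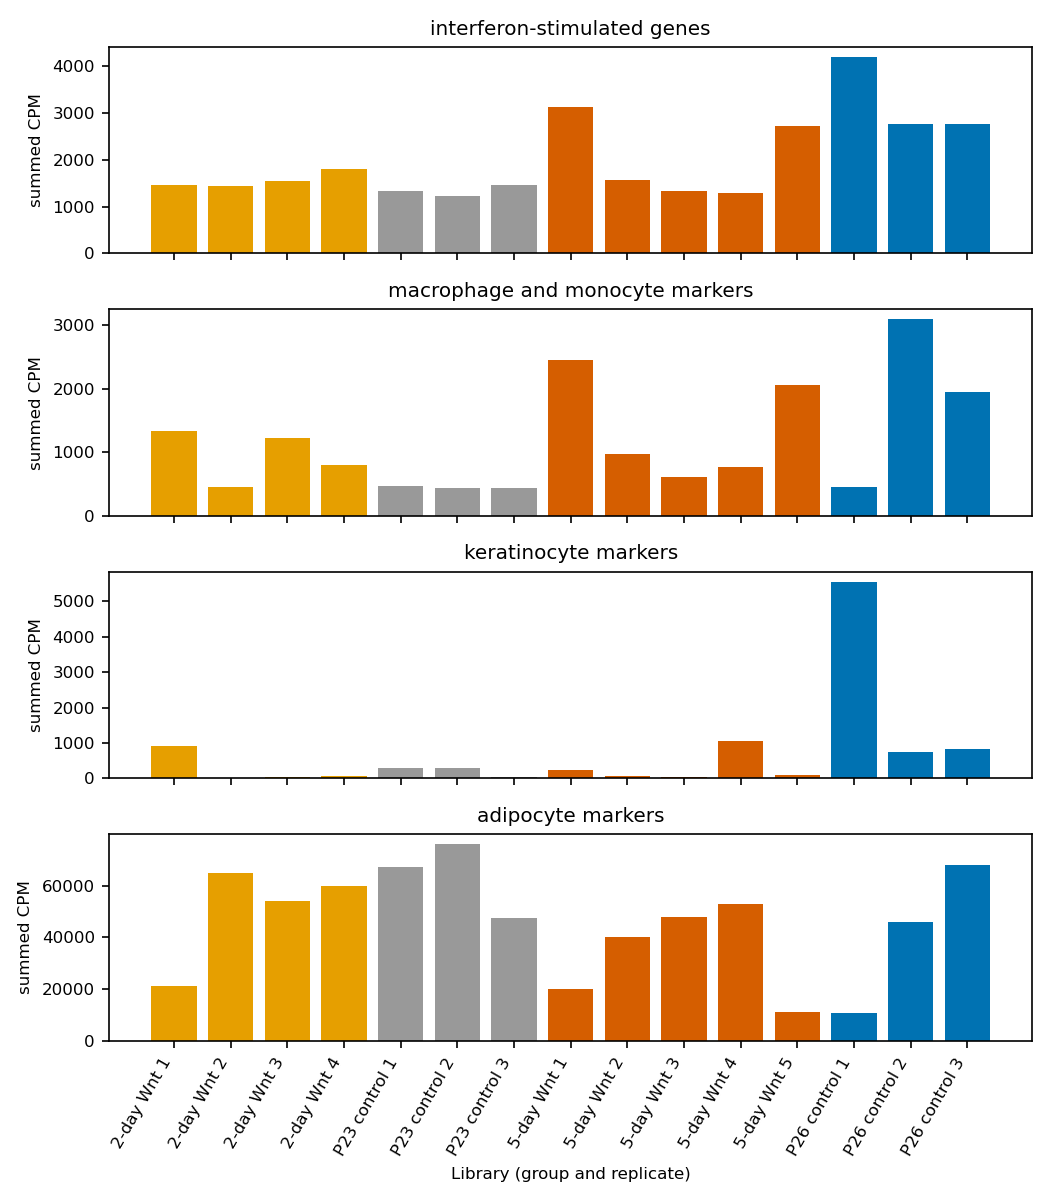
Summed CPM per library for the 37 interferon-stimulated genes and for 10 macrophage and monocyte, 8 keratinocyte and 10 adipocyte markers, with a bar per library coloured by group. 5-day Wnt replicates 1 and 5 are the highest of their group for the interferon-stimulated genes and the macrophage markers and the lowest for adipocyte markers, while P26 control replicate 1 is highest for the interferon-stimulated genes (4200 CPM) and the keratinocyte markers (5558 CPM) with a macrophage sum of 460.6 CPM.

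General leukocyte markers summed to 61.7 to 174.5 CPM in the 2-day libraries, against 46.1 to 68.6 CPM in the P23 controls, and to 64.0 to 231.9 CPM in the 5-day libraries, against 64.9 to 406.8 CPM in the P26 controls. Keratinocyte markers were lower at 5 days for 8 of 8 genes (median -2.97) and higher in the P26 against the P23 controls for 8 of 8 (median 3.59), at 41.4 to 1049 CPM in the 5-day libraries, against 755.9 to 5558 CPM in the P26 controls. The 3 lowest adipocyte marker sums were 10580, 11030 and 20210 CPM, in P26 control replicate 1 and 5-day replicates 5 and 1, whose member sums were 4200, 2712 and 3131 CPM. Their part in the results was not tested either. Of the markers of plasmacytoid dendritic cells, a strong source of interferon, Siglech and Ccr9 were each at 0 counts in 11 of 15 libraries. The summed list, which shares Bst2 with the members, ran from 160.5 to 316.3 CPM in the 5-day libraries, against 157.3 to 282.5 CPM in the P26 controls. It was made up mostly of Tcf4, Bst2 and Irf8, with medians of 99.9, 47.15 and 38.98 CPM over the 15 libraries. The sum is therefore no measure of these cells. Neutrophil markers were near 0, with summed levels of 0 to 5.06 CPM in the 5-day libraries, against 3.18 to 9.47 CPM in the P26 controls. Of these markers 4 of 4 tested were lower at 5 days (median -1.96), but S100a8 and Mpo were each at 0 in 11 of 15 libraries. T and NK cell markers summed to 0 to 9.30 CPM in the 5-day libraries, against 0 to 2.08 CPM in the P26 controls, with the highest values in 5-day replicates 5 and 1.

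Fibroblast markers were higher at 2 days for 8 of 8 genes (median 0.90), at 5 days for 7 of 8 (median 0.77), and in the P26 against the P23 controls for 8 of 8 (median 0.69). They summed to 28330, 11920, 36220 and 15950 CPM in the 2-day libraries, against 11930, 12150 and 12920 CPM in the P23 controls. At 5 days they summed to 45270, 32330, 19970, 20970 and 102700 CPM in the 5-day libraries, against 6620, 31720 and 19940 CPM in the P26 controls. Endothelial markers were higher for 6 of 6 genes at 2 days (median 0.42) and at 5 days (median 1.08), and for 1 of 6 in the P26 against the P23 controls (median -0.52). They summed to 564.5, 308.0, 647.7 and 16.1 CPM in the 2-day libraries, against 78.5, 168.5 and 596.6 CPM in the P23 controls, groups that overlapped. At 5 days they summed to 423.7, 328.7, 240.3, 283.1 and 686.0 CPM in the 5-day libraries, against 218.2, 194.3 and 126.4 CPM in the P26 controls. For both lists 5-day replicates 5 and 1 were the highest of their group, as for the member sums. The part of these cells in the results was not tested.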

How the data were processed

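RNA-seq libraries were made from 100 ng of total RNA with the Universal Plus mRNA-SEQ kit, per the labels' protocols. Raw counts per gene were used as the authors deposited them, after matching columns to titles. Per the submitters' processing notes, DESeq2 1.40.1, Cufflinks 2.2.1, SAMtools 1.9 and Trimmomatic 0.39 were used with mm10 (GRCm38). Which programs aligned and counted the reads, and whether strand was used, is not given in the sources used here, so values of overlapping genes are uncertain. Of 35373 genes, 35300 had an identifier in GENCODE M21 (99.0453% with the same coordinates).

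filterByExpr by group left 16935 genes and removed 18438. Libraries were scaled with TMM, and a 4-group model over all 15 was fitted with edgeR 4.0.16 (robust quasi-likelihood, two-sided, Benjamini-Hochberg over all genes, threshold 0.05, R 4.3.3), and tested on simulated data. DESeq2 1.42.0 and limma-voom 3.58.1 with library weights were alternatives. The DESeq2 and limma adjusted p-values in the report use the same groups. The 95% intervals are 1.96 SE. CPM is the count relative to the normalised library size. Titles give replicates as biological, so each was taken as 1 replicate. Same-numbered libraries of the same age correlated at -0.0094 to 0.1598 in their deviations, and differently numbered ones at -0.1585 to 0.0926. The ranges overlapped, though the same-numbered values were mostly the higher. Numbers were not taken to pair samples, and a fit with the replicate number as a block was an alternative. For contrasts between ages that fit used the controls alone or the Wnt libraries alone.

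Members and lists were chosen with earlier results of these data known. Fold changes are printed for the 6 members with the smallest p in each Wnt comparison, 3 in each other contrast, and anchors per role. From the other lists up to 3 genes with the smallest p are named. Rsad2, Ifit2, Cmpk2, Oas3, Oasl1, Zbp1, Trim25, Ifi27, Ifi203, Ifi204, Adgre1 and Ptprc were named outside that rule, after their values were seen. Promoters come from RefSeq. Results for some genes are not reported here.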

Additional observations from a re-analysis of the deposited data

Results flagged for a closer look

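Dixon's criterion was applied to each member in the 2-day and in the 5-day group, which made 74 sets of values. In 6 sets a single library stood apart from the others of its group. Chance flags about 1 in 20 independent sets, but these sets share the same libraries and are not independent. In 3 of the 6 the library was at 0. Usp18, which removes ISG15 from proteins, was at 0 CPM in 2-day Wnt replicate 4 and at 3.26 to 4.02 CPM in the other 2-day libraries. Oas3 was at 0 CPM in 2-day replicate 2 and at 2.74 to 5.40 CPM in the others. Cmpk2 had 0 CPM in 2-day Wnt replicate 1 as labelled, with 3.21 to 5.11 CPM in replicates 2 to 4. Of the 555 values of the members, 7 were 0, 0 were 1 or 2, and 3 others were under 20 counts.

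In the other 3 the library lay above or below its group. Ifi44 was at 7.31 CPM in 2-day replicate 4, while 2-day replicates 1 to 3 held 1.45 to 1.60 CPM. It was at 12.75 CPM in 5-day replicate 5, while 5-day replicates 1 to 4 held 2.21 to 3.60 CPM. Ifi27 was at 114.0 CPM in 5-day replicate 5, while 5-day replicates 1 to 4 held 239.6 to 293.2 CPM.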

How the results depend on the processing

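EdgeR called 0 genes and 0 members in all 6 contrasts with the settings of the report. DESeq2 called 149 genes at 2 days, 200 at 5 days, 149 for the difference, 321 for the mean effect, 286 for P26 against P23 controls and 106 for the 5-day against the 2-day Wnt libraries. Among these were 1, 1, 2, 0, 15 and 0 members. Limma-voom with library weights called 226 genes and 4 members at 5 days, 138 genes and 8 members in the controls and 11 genes and 0 members for the mean effect. With a replicate block, 2 genes were called for the mean effect. In the controls, fitted alone with that block, 16 were called, 3 of them members (Ifit1, Rsad2 and Ifi202b). Without both libraries that stood apart, 4 genes were called at 5 days and 1 for the mean effect. Leaving out 1 library gave 0 to 4 called genes at 5 days, 0 to 2 for the difference, 0 to 3 for the mean effect and 0 to 5 in the controls, with 0 to 1 members in the controls (Ifi202b, adjusted p = 0.0496 without 5-day replicate 5) and 0 elsewhere. The median log2 fold change of the members ran, when 1 library was left out, from 0.33 to 0.71 at 2 days, from -0.89 to -0.23 at 5 days, from -1.63 to -0.80 for the difference, from 1.36 to 1.95 in the controls, from 0.42 to 0.83 between the Wnt libraries and from -0.28 to 0.08 for the mean effect.

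Single members changed sign without passing any threshold. Ifit1 (-0.56) and Ifi35 (-0.15) were lower at 2 days when libraries were grouped as in the authors' sheet, Oas2 (-0.15) with limma-voom and Rtp4 with the replicate block (-0.0897) or without 2-day replicate 4 (-0.14). At 5 days Stat2 was -0.11 with limma-voom and ran from -0.13 to 0.22 when 1 library was left out. Ifit3 was -0.77 with limma-voom and ran from -0.11 to 0.64. Ifitm3 was 0.0503 with a Y-linked covariate and 0.11 without P26 control replicate 1 or both libraries, and ran from -0.71 to 0.11. The causes were not tested.

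Of the other recomputed values, 991 for single members kept their direction and their side of the threshold. The counts of members at an unadjusted p under 0.05 ran, when 1 library was left out, from 2 (without P23 control replicate 1 or 2-day replicate 4) to 7 higher (without 2-day replicate 2 or P26 control replicate 1) at 2 days, and from 3 (without P26 control replicate 1) to 12 lower (without 5-day replicate 1) at 5 days. They ran from 5 (without P26 control replicate 1; 8 without 2-day replicate 4) to 18 lower for the difference, and from 18 to 28 higher in the P26 against the P23 controls. Between the Wnt libraries they ran from 1 to 9 higher (8 without 5-day replicate 3 and 9 without replicate 4). With all 15 libraries, the shares of all genes at that p were 2.96% (higher, 2 days) and 3.04% (lower, 5 days). They were 2.93% for the difference (lower), 4.85% in the controls (higher) and 3.87% between the Wnt libraries (higher). The lowest counts, 2 at 2 days and 1 between the Wnt libraries, were near those shares. Oas3 was at 0 in the deepest library, 5-day replicate 4, as well as in shallower ones. Same-numbered libraries were not taken as pairs, and the replicate block changed no call other than those given. With the level of Y-linked transcripts as a covariate the median over the members was -0.84 at 5 days, with 12 lower at an unadjusted p under 0.05 (2.8% of all genes), 0.44 at 2 days, with 3 higher (3.11%), and 1.72 in the controls, with 24 higher (4.48%), and no gene was called.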
